A study of Homo sapiens with 24 samples.

Results

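The epidermal differentiation complex is a cluster of genes on human chromosome 1, many of which serve the surface layers of stratified epithelia. It was described here as an interval of 1.66 Mb of hg19, which starts at position 151950001 and ends 10 kb past position 153600000, by every called peak or region that overlapped it by at least 1 bp. These were 1870 regions out of 1483402 in 18 lists. The lists came from ChIP-seq, in which chromatin fragments bound by an antibody are sequenced, of UMUC1, a human bladder cancer cell line in culture. Each of 3 stable lines carried the puromycin-selectable vector pSIN. HEAA cells expressed UTX with the substitutions H1146A and E1148A, WT cells the unmutated UTX, and EV cells the vector without an insert. All lines were grown in the same medium and harvested 3 days after plating, and the labels do not say whether each line is a clone or a pool.

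UTX, also named KDM6A, is a demethylase that removes methyl groups from lysine 27 of histone H3, and a subunit of the complexes of MLL3 and MLL4, the methyltransferases that place H3K4me1 at enhancers. H3K27me3 is laid down by Polycomb repressive complex 2 on silent genes, and H3K27ac, on the same residue, marks active enhancers and promoters, so that a nucleosome tail carries one or the other. Many genes of the cluster are switched on during keratinocyte differentiation. Loricrin (LORICRIN), involucrin (IVL), the small proline-rich (SPRR) and the late cornified envelope (LCE) proteins build the cornified envelope. Filaggrin (FLG) and its fused-type relatives organise keratin filaments or the envelope, and S100 proteins bind calcium. S100A8 and S100A9 together form calprotectin, an antimicrobial complex of inflamed epithelia.

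In the RefSeq gene table of GRCh38.p14, used for names and order alone, 63 protein-coding genes stand between S100A10 and S100A1, the outermost S100 genes. They comprise 19 LCE genes, 16 S100 genes, 11 SPRR genes, 7 fused-type S100 genes and 10 others. S100A10 and S100A11 come first, followed by the fused-type genes (TCHHL1, TCHH, RPTN, HRNR, FLG, FLG2 and CRNN) and the LCE genes. IVL, the SPRR genes and LORICRIN stand next. PGLYRP3 and PGLYRP4, which encode peptidoglycan recognition proteins, come before S100A9, S100A12, S100A8 and S100A7, and S100A6 to S100A1 close the row. An hg19 annotation was not used here, so regions and bins were not assigned to genes, and the gene content of the interval was not checked on that build.

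UTX, MLL4, H3K4me1 and H3K27me3 had 1 list per line, and H3K27ac had 2 numbered libraries per line. A single list gives no replicate error, and read depths are unknown. Where no peak was called the signal was under the caller's threshold, and lists lengthen with depth and antibody performance. The share of the interval that was called exceeded the share of the genome in all 12 histone lists: by 3.44 to 3.90 times for H3K27ac, 3.29 to 3.85 times for H3K4me1, and 2.07 (HEAA), 2.19 (WT) and 2.73 times (EV) for H3K27me3. H3K27ac stood about as high in the neighbouring stretch of the same length on the low-coordinate side (12.3% and 7.03% covered in the HEAA libraries, 10.9% and 7.90% in WT, 9.68% and 9.69% in EV) as in the interval itself (12.3% and 5.85% in HEAA, 10.7% and 6.30% in WT, 10.8% and 9.03% in EV), and in every library less of the high-coordinate neighbour was covered (7.95% and 5.04% in HEAA, 7.17% and 5.56% in WT, 6.51% and 6.66% in EV). H3K27me3 covered 16.8% of the interval in HEAA, 11.9% in WT and 21.1% in EV, against 1.90% in HEAA, 0.975% in WT and 2.68% in EV of the low-coordinate neighbour, and 15.0% in HEAA, 10.4% in WT and 14.8% in EV of the high-coordinate one.

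UTX peaks were dense in the interval. The HEAA list held 17 of its 2855 UTX peaks there (0.595%), the WT list 16 of 2566 (0.624%) and the EV list 1 of 31 (3.23%). When the genome was laid out in windows of 1650 kb, 1720 of them held an H3K4me1 region, and the median window held 1 UTX peak in HEAA and 1 in WT. Of these windows, 1 held more HEAA peaks than the interval (18 peaks, against 17), and 0 held more WT peaks. With peaks of −log10 q of at least 5 alone, the interval held 13 HEAA and 16 WT peaks. The windows were counted again at that threshold after the data were seen, and 1 held more peaks than the interval in HEAA and 0 in WT. The stretches of the same length on either side held 9 HEAA and 8 WT peaks on the low-coordinate side and 5 HEAA and 5 WT peaks on the high-coordinate side. The peaks were dense but not strong: their median fold over background, as the peak caller gave it, was 4.96 in HEAA and 4.98 in WT, and the median of the whole list was 5.27 in HEAA and 5.19 in WT.

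MLL4 was called less often: 6 of 1125 peaks in HEAA (0.533%), 4 of 898 in WT (0.445%) and 1 of 133 in EV (0.752%) lay in the interval. The median window held 0 MLL4 peaks, and 10 windows in HEAA and 18 in WT held more than the interval. Merging the overlapping UTX and MLL4 peaks of all lines gave 24 sites, numbered here from the low-coordinate edge. UTX was called at 22 of them, at 11 in both HEAA and WT, at 6 in HEAA without WT and at 5 in WT without HEAA. The sites common to both lines were thus 50.0% of UTX sites, against 46.5% of the 3666 UTX sites elsewhere in the genome. MLL4 was called at 9 sites, and 2 of these, site 12 (HEAA, 5.65-fold) and site 21 (WT, 5.5-fold), had no UTX peak in any line.

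The strongest UTX peak was at site 11, on chromosome 1 from 152140342 to 152140687, with 9.87-fold enrichment in HEAA and 6.61-fold in WT and no peak in EV. MLL4 was called there in HEAA (6.92-fold) and in no other line. Within 6 kb of it lay site 9 (152135371 to 152135706), with 3.93-fold in HEAA and 7.16-fold in WT, and site 10 (152137289 to 152137532), called in HEAA (3.63-fold) and not in WT. These 3 sites stood inside 1 merged H3K4me1 region from 152134797 to 152142668, the third widest of the interval. The order of the lines thus differed between neighbouring sites, and with 1 list per line these differences have no replicate check.

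Site 20, from 153465799 to 153466261, was the site at which MLL4 was called in every line. Its MLL4 fold was 7.28 in HEAA, 6.12 in WT and 7.67 in EV. UTX was called there with 7.89-fold enrichment in HEAA and 7.43-fold in WT, and not in EV. H3K27ac was called in all 6 libraries and H3K4me1 in the 3 lines. Site 13, from 152365372 to 152365758, was the one place with a UTX peak in EV: 5.43-fold in HEAA, 6.72-fold in WT and 5.16-fold in EV, so a UTX peak there was also called without a UTX construct. The EV peak had a −log10 q of 3.19, against 24 in HEAA and 33.7 in WT.

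**Figure D1:**
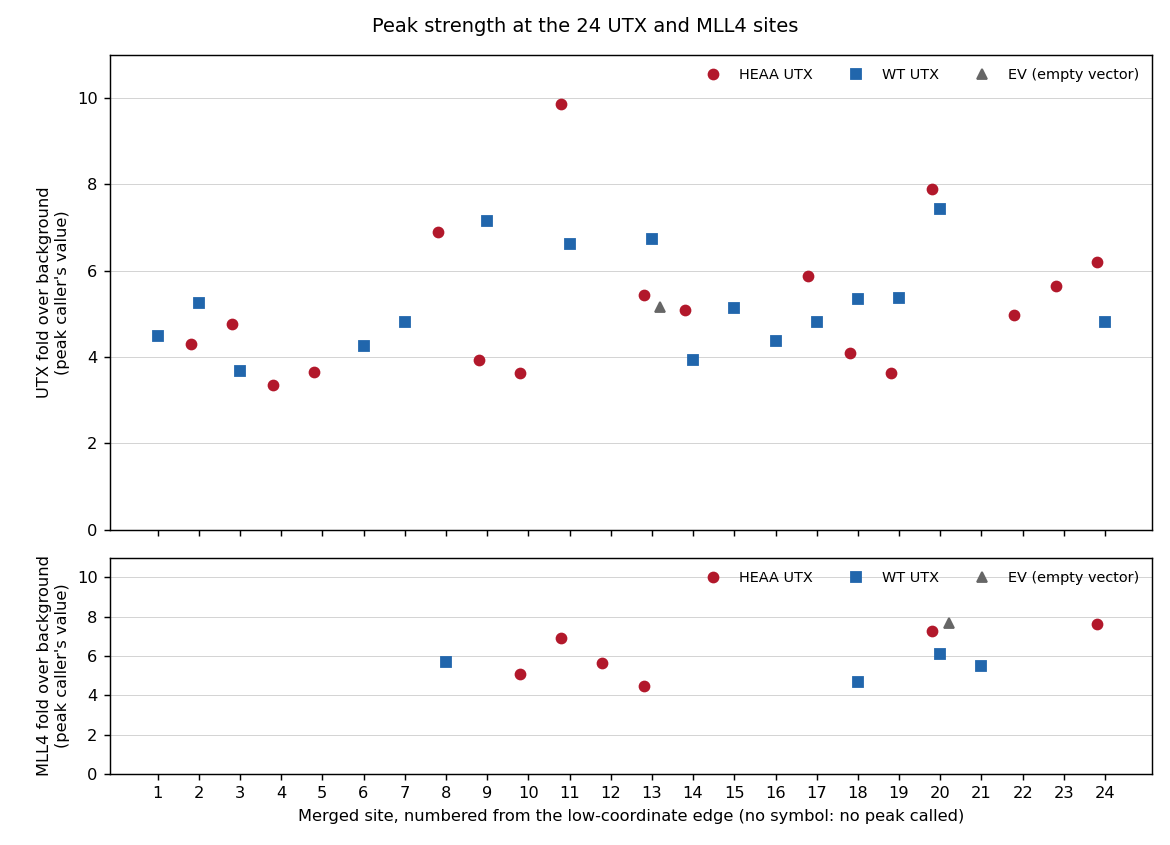
Fold enrichment over background of the UTX peaks (top) and MLL4 peaks (bottom) at the 24 merged sites, in order from the low-coordinate edge. Circles are HEAA, squares WT and triangles EV; a missing symbol means that no peak was called. UTX peaks lie between 3.34 and 9.87-fold in HEAA and WT, and EV has 1 UTX peak (site 13) and 1 MLL4 peak (site 20).

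The UTX sites stood in groups with long gaps between them. Bins are numbered here from 1 to 33, each 50 kb long, from the low-coordinate edge, and 10 kb at the far end were left out of the bins. Sites 1 to 7 lay in bins 1 and 2 and sites 8 to 11 in bins 3 and 4. No UTX or MLL4 peak was called in any line in bins 10 to 18, nor in bins 28 to 30. Sites 14 and 15 in bin 19 stood in 1 acetylated region from 152873146 to 152882759. Sites 22 and 23, called in HEAA and not in WT (4.96 and 5.65-fold), stood in the strongest acetylated region of the interval, from 153535811 to 153541925.

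H3K27ac was called in all 6 libraries at 15 of the 22 UTX sites (68.2%, against 66.2% of UTX sites elsewhere), in some libraries at 6, and in none at 1. That site, number 16 (152935593 to 152935759), was called in WT (4.38-fold) and carried H3K4me1 in every line. H3K4me1 overlapped 18 UTX sites in HEAA (81.8%, against 67.9% of UTX sites elsewhere), 17 in WT (77.3%, against 66.6%) and 18 in EV (81.8%, against 75.6%). H3K27me3 overlapped 0 of the 22 sites in HEAA, 0 in WT and 0 in EV, and elsewhere in the genome it overlapped 0.191% of UTX sites in HEAA, 0.109% in WT and 0.109% in EV. The sites lay close to H3K27me3 all the same. The median distance to the nearest H3K27me3 region was 27.1 kb in HEAA, 26.8 kb in WT and 22.1 kb in EV, against 72.0 kb in HEAA, 83.8 kb in WT and 58.3 kb in EV for UTX sites elsewhere. Site 13 was 0.735 kb from one in HEAA and 0.804 kb in WT, against 11 kb in EV. These distances were not tested, and the interval holds more H3K27me3 than the genome at large.

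The histone marks divided the interval into alternating stretches. In HEAA 16 of the 33 bins held more H3K27ac (mean of the libraries) than H3K27me3 and 17 the reverse, in WT 18 and 15, and in EV 13 and 20. Genome-wide, H3K27ac was the larger, with at least 500 called bases, in 26.4% of bins in HEAA, 27.5% in WT and 24% in EV. H3K27me3 was the larger by the same rule in 43.6% in HEAA, 36.0% in WT and 42.5% in EV. In the other bins of the genome (29.9% in HEAA, 36.6% in WT, 33.5% in EV) neither mark led with at least 500 called bases. No bin of the interval was of this kind. H3K27ac was concentrated at both edges and in 2 inner islands. Bin 1 held 28.7 and 17.7 kb of it in HEAA, 26.2 and 16.1 kb in WT, and 25.1 and 19.1 kb in EV, the most of all bins on average. Bins 32, 19, 31 and 2 followed. The inner islands, bins 10 to 11 and 19 to 20, and the high-coordinate edge, bins 31 to 33, held 0 bases of H3K27me3 in every line. The 5 bins with the most H3K4me1 were bins 1, 32, 11, 19 and 31, of which 4 were also among the 5 with the most H3K27ac.

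Between the islands lay the H3K27me3 stretch of bins 12 to 18, from 152500 to 152850 kb. It held 147 kb in HEAA, 104 kb in WT and 182 kb in EV, or 52.8% of the line's H3K27me3 in the interval in HEAA, 52.5% in WT and 52.1% in EV. H3K27ac there came to 5.28 and 1.04 kb in HEAA, 3.78 and 1.53 kb in WT, and 2.18 and 1.86 kb in EV, and none of it was in bins 12 to 16. The 5 bins with the most H3K27me3 were bins 14, 15, 13, 17 and 29, of which bin 29 lies outside this stretch. The widest merged H3K27me3 region ran from 152632872 to 152653637, of which 18972 bases were called in HEAA, 15709 in WT and 18421 in EV. The second, from 152569363 to 152584448, had 14514 bases in HEAA, 10380 in WT and 14043 in EV, and the third, from 152794966 to 152804285, had 8007 in HEAA, 6154 in WT and 7580 in EV. The fourth and the fifth lay outside the stretch, in bins 6 and 7. The fourth, from 152218553 to 152227471, had 7362 bases in HEAA, 3032 in WT and 7600 in EV, and the fifth, from 152252289 to 152260314, had 5310 in HEAA, 2637 in WT and 7609 in EV. WT had the fewest called bases in each of the 5. No base of the interval had both H3K27me3 and H3K27ac in both libraries of a line. H3K4me1 and H3K27me3 shared 6.21 kb in HEAA, 4.33 kb in WT and 6.5 kb in EV. The 2 overlaps rest on unlike sets. H3K27ac in both libraries came to 95.7 kb in HEAA, 99.8 kb in WT and 131 kb in EV. H3K4me1, with 1 list per line, came to 335 kb in HEAA, 316 kb in WT and 325 kb in EV.

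**Figure D2:**
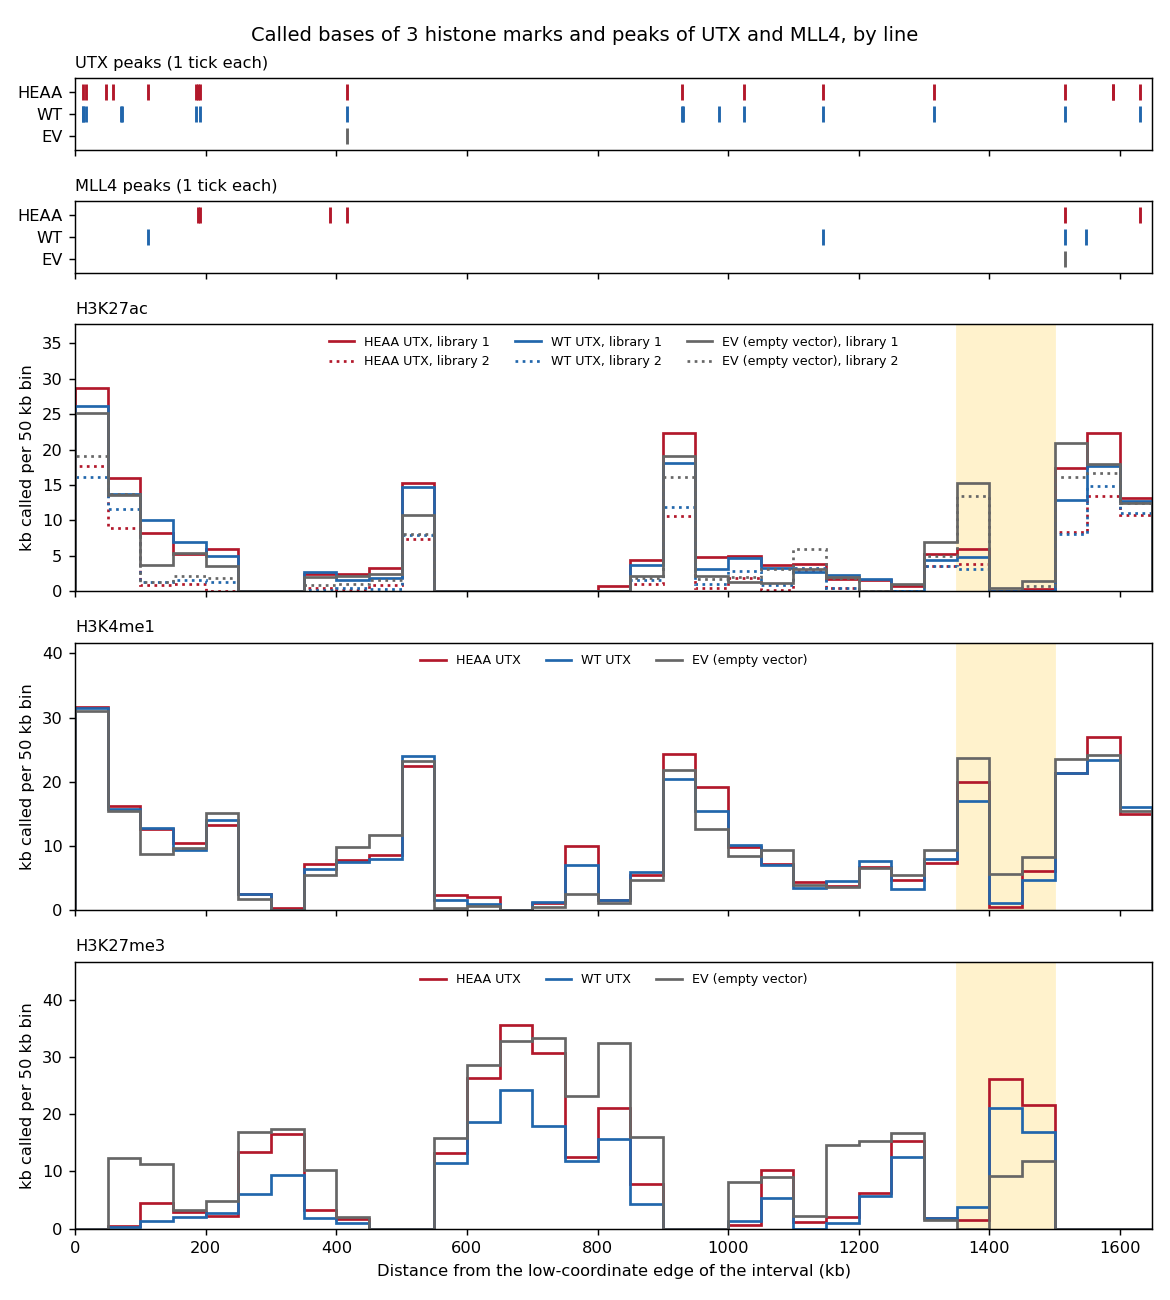
Peaks of UTX and MLL4 (ticks, 1 row per line) and called kb of H3K27ac, H3K4me1 and H3K27me3 in each of 33 bins of 50 kb, against distance from the low-coordinate edge of the interval. Red is HEAA, blue WT and grey EV; dotted lines are the second H3K27ac libraries. Bins 28 to 30 are shaded: H3K27ac in bin 28 is at most 6 kb in HEAA and WT and at least 13.5 kb in EV, and H3K27me3 in bin 29 is 26.1 kb in HEAA, 21.1 kb in WT and 9.25 kb in EV.

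The first comparison asked whether the interval as a whole gained or lost acetylation with a UTX construct. The libraries held 204 and 97.0 kb of H3K27ac in HEAA, 177 and 105 kb in WT, and 179 and 150 kb in EV. The lines overlapped, and the spread within HEAA and WT, between their first and second libraries, was larger than any difference between lines. The 4 HEAA and WT libraries averaged 146 ± 53.0 kb and the 2 EV libraries 165 ± 20.9 kb (SD), a difference of −18.9 kb (two-sided exact permutation test, p = 0.667). HEAA minus EV was −14.2 kb (p = 1), WT minus EV −23.7 kb (p = 0.667) and HEAA minus WT 9.47 kb (p = 1) in the same exact permutation test, 2 libraries against 2. The smallest p these designs allow is 0.0667 for 4 libraries against 2 and 0.333 for 2 against 2, so none could pass 0.05. Among the first libraries alone HEAA minus EV was 24.4 kb and WT minus EV −2.11 kb, and among the second libraries alone HEAA minus EV was −52.8 kb and WT minus EV −45.2 kb. The direction thus turned with the library number in HEAA, while WT was below EV at both numbers. HEAA minus WT was 26.5 kb among the first libraries and −7.55 kb among the second. Leaving out 1 library also turned directions: HEAA minus EV was 39.2 kb without the second HEAA library and 0.585 kb without the first EV library, WT minus EV was 12.7 kb without the second WT library, and HEAA minus WT was −43.9 kb without the first HEAA library and −26.9 kb without the second WT library. HEAA and WT minus EV stayed below 0, between −38.3 and −2.73 kb.

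Total list length differed between libraries in the same way, with 110 and 48.3 Mb called in HEAA, 96.0 and 55.3 Mb in WT, and 88.1 and 71.6 Mb in EV. Per called Mb of each list, the interval took 1844 and 2010 bases in HEAA, 1847 and 1891 in WT, and 2037 and 2092 in EV. On this scale the 4 HEAA and WT libraries (1898 ± 77.9, SD) all lay below the 2 EV libraries (2065 ± 38.5), with p = 0.0667 in the exact permutation test, the smallest it can give. The interval thus held a smaller share of the acetylated genome in HEAA and WT in 4 of 4 libraries. The difference in means was −166 bases per called Mb. On the same scale bin 28 differed by −121 and bin 31 by −79.1, while bins 11 and 21 differed by 29.3 and 24.6. The smaller share thus lay mainly in bins 28 and 31 and was not spread over the interval. The labels do not say that the numbered libraries came from separate cultures, so these p-values rest on a spread that may be technical.

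Acetylation was also compared by bin, with each rule counted genome-wide beside the interval. Of the bins, 22 held at least 500 called bases on average. Among these, 0 had more H3K27ac in every HEAA and WT library than in every EV library (2.82% of 20799 bins genome-wide). In 1 bin it was lower (4.55%, against 6.0%). That bin was number 28. Without any 1 of the 6 libraries, 2 or 3 bins were lower, and 1 was higher without the second HEAA or the second EV library. With each bin scaled to its list's called bases, bins 11 and 21 were higher (9.09%, against 7.27% genome-wide) and bins 28 and 31 lower (9.09%, against 8.63%). Unscaled, HEAA alone against EV had 0 bins higher (4.19% genome-wide) and 2 lower (9.09%, against 7.75%). WT alone against EV had 1 higher (4.55%, against 6.9%) and 3 lower (13.6%, against 15.7%). HEAA libraries did not separate from WT libraries in any bin on the unscaled count, either higher (2.05% genome-wide) or lower (1.46%). This count moved when a library was left out: 18 bins were higher without the second HEAA library and 14 lower without the first. Without the first WT library 6 were higher, and without the second 1 was higher and 5 lower. Genome-wide shares were not computed for any count with a library left out, so these counts cannot be read as a trait of the interval. Compared within each library number, 0 bins were higher in HEAA and WT than in EV at both numbers (7.12% genome-wide) and bins 27, 28 and 31 were lower (3 of 22 or 13.6%, against 16.5%). Likewise HEAA was higher than WT at both numbers in 5 bins (1, 10, 27, 28 and 31; 22.7%, against 18% genome-wide) and lower in bins 3, 4 and 24 (13.6%, against 15.7%), so that the count of bins differing between HEAA and WT depended on whether libraries were matched by number.

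**Figure D3:**
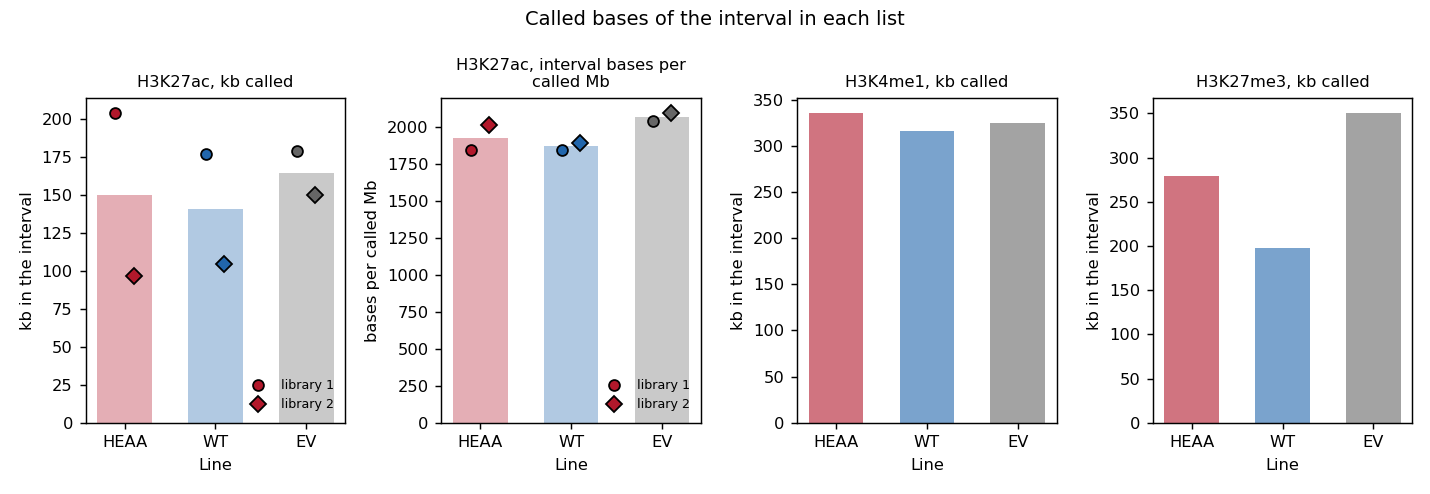
Called bases of the interval in each list, with HEAA, WT and EV from left to right. In the first 2 panels bars are the mean of the H3K27ac libraries, circles the first and diamonds the second library, in kb and per called Mb of the list; in the last 2 panels each bar is 1 list. Unscaled H3K27ac overlaps between lines, and H3K27me3 is 279 kb in HEAA, 198 kb in WT and 350 kb in EV.

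Merging the H3K27ac regions of all libraries gave 133 regions, of which 38 were called in all 6 libraries (28.6%, against 31.8% genome-wide). Among these 38, the region with the best mean rank of fold, from 153535811 to 153541925, had 20.3 and 16.4-fold enrichment in HEAA, 21.2 and 23.2-fold in WT, and 17.5 and 28.8-fold in EV. The second, from 152005434 to 152010245, had 16.0 and 16.3-fold in HEAA, 18.2 and 19.5-fold in WT, and 12.2 and 17.3-fold in EV, and held UTX site 5. The third, from 151956760 to 151977108, was the widest of the top 10 and held UTX sites 1 to 3. Of the top 10 regions, 3 lay in bins 1 and 2, 1 in bin 19 and the other 6 from bin 31 to the high-coordinate edge. UTX was called in HEAA or WT in 6 of these 10. From the fourth to the tenth, folds lay between 7.12 and 14.3 in HEAA, between 6.97 and 18.8 in WT, and between 6.81 and 19.6 in EV.

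Called in both EV libraries and in no HEAA or WT library were 3 of the 133 regions (2.26%, against 0.910% genome-wide), and all 3 lay together in bins 30 and 31. They ran from 153447149 to 153447542 (2.67 and 3.43-fold in the EV libraries), from 153450531 to 153452032 (3.17 and 3.95-fold) and from 153455432 to 153457353 (3.36 and 4.85-fold). H3K4me1 was called in every line at each of the 3, and H3K27me3 in none. The opposite pattern, called in all 4 HEAA and WT libraries and in neither EV library, was found at 1 region (0.752%, against 0.541%). It ran from 152955295 to 152956414 in bin 21, with 4.44 and 3.99-fold in HEAA and 3.76 and 4.40-fold in WT, and lay wholly within H3K4me1 in every line. No line had H3K27me3 called on it.

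H3K4me1 covered 335 kb in HEAA, 316 kb in WT and 325 kb in EV. The ratios to EV were 1.03 for HEAA and 0.971 for WT, while the whole lists were 1.18 (HEAA) and 1.14 times (WT) as long as that of EV, so per called Mb the ratios were 0.869 for HEAA and 0.855 for WT. HEAA over WT was 1.06. Of 31 bins entered, a ratio of at least 2, after 1000 bases were added to each value, was met in 2 bins in HEAA over EV (bins 12 and 16; 9.54% genome-wide) and in 1 bin in WT over EV (bin 16; 9.56%). Bin 16, within the H3K27me3 stretch, had 10.0 kb of H3K4me1 in HEAA, 7.08 kb in WT and 2.46 kb in EV, while its H3K27me3 was 12.6 kb in HEAA, 11.8 kb in WT and 23.1 kb in EV. A ratio of at most 0.5 was met in 1 bin, number 29, in HEAA over EV (0.604% genome-wide) and in WT over EV (1.00%), and both of these ratios share the same EV list. No bin passed 2-fold between HEAA and WT (0.654% higher and 0.572% lower genome-wide).

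Merged over the lines, H3K4me1 formed 229 regions, of which 132 were called in all 3 lines (57.6%, against 47.1% genome-wide), 28 in EV alone (12.2%, against 7.54%) and 23 in HEAA and WT and not EV (10.0%, against 13.5%). The 2 widest were next to each other at the low-coordinate edge, from 151947143 to 151964326 and from 151966762 to 151977441, and overlapped UTX sites 1 to 3. The third is the region of sites 9 to 11 described above. The fourth, from 153260467 to 153268148 in bin 27, held UTX site 19 and had 6148 called bases in HEAA, 6792 in WT and 7433 in EV, and the fifth, from 152854722 to 152862125 in bin 19, had 7396 in HEAA, 6092 in WT and 7150 in EV. H3K4me1 without H3K27ac or H3K27me3 covered 153 kb in HEAA, 153 kb in WT and 147 kb in EV. Of the bases acetylated in both libraries, 82.7% in HEAA, 83.8% in WT and 87.5% in EV also carried H3K4me1.

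H3K27me3 covered 279 kb in HEAA, 198 kb in WT and 350 kb in EV. The ratio to EV was 0.797 for HEAA, against 1.05 for the whole lists, and 0.567 for WT, against 0.704 for the whole lists. Scaled to list length the ratios were 0.759 for HEAA and 0.805 for WT. HEAA over WT was 1.41 unscaled and 0.943 scaled, so its direction turned with the scaling. By bin, 6 of 25 were at least 2-fold lower in HEAA than in EV (24%, against 10.8% of bins genome-wide), and 10 of 25 in WT than in EV (40.0%, against 27.3%). With lists scaled to their called bases, 7 of 25 bins were lower by this rule in HEAA and 7 of 25 in WT. No genome-wide share was computed for the scaled counts. Unscaled, the 6 HEAA bins were 2, 3, 8, 21, 24 and 25. The 10 WT bins were 2, 3, 6, 8, 17, 18, 21, 23, 24 and 25. These shares were not tested, since each rests on 1 list per line and both share the EV list.

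Bin 2 was part of the strongly acetylated low-coordinate edge and held UTX sites 5 to 7. Its H3K27me3 was 0.531 kb in HEAA and 0.238 kb in WT, against 12.4 kb in EV. In EV these sites lay 22.6, 10.1 and 9.34 kb from the nearest H3K27me3 region. H3K27ac of the same bin overlapped between the lines, with 16.0 and 8.89 kb in HEAA, 13.7 and 11.6 kb in WT, and 13.6 and 13.7 kb in EV. Bin 24 had 1.98 kb of H3K27me3 in HEAA and 0.961 kb in WT, against 14.7 kb in EV, with no UTX peak inside it. Bin 21 had 0.684 kb of H3K27me3 in HEAA and 1.29 kb in WT, against 8.20 kb in EV. It also holds the acetylated region absent from both EV libraries, on which no line had H3K27me3 called. UTX site 17, also in bin 21, lay 7.13 kb from the nearest H3K27me3 region in EV. HEAA was at least 2-fold above WT in bins 3, 6 and 23 (3 of 25 or 12%, against 22.1% genome-wide) and at least 2-fold below it in 0 bins (0.347%). Merged over the lines, 85 of 281 H3K27me3 regions were called in EV alone (30.2%, against 21% genome-wide), 96 in all lines (34.2%, against 25.7%) and 18 in HEAA and WT and not EV (6.41%, against 7.40%).

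Bins 28 to 30, from 153300 to 153450 kb, went the other way. They were singled out after their values were seen, and no test is given for them. H3K27me3 was at least 2-fold higher than in EV in bins 28 and 29 in HEAA (2 of 25 bins or 8.00%, against 13.5% genome-wide) and in the same bins in WT (4.18% genome-wide), each set against the same EV list. Over the 3 bins it covered 49.2 kb in HEAA and 41.7 kb in WT, against 21.1 kb in EV, or 2.33 times the EV value in HEAA and 1.98 times in WT. In bin 28 itself it was 1.49 kb in HEAA and 3.72 kb in WT, against 0 kb in EV. These bins held 17.6% of the interval's H3K27me3 in HEAA and 21% in WT, against 6.03% in EV. Of the 32.4 kb called in HEAA and WT and not in EV across the interval, 18.2 kb (56.2%) lay here, while of the 131 kb called in EV and in neither other line 3.09 kb (2.35%) did.

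In WT this difference depended on the peak threshold. With regions of −log10 q of at least 3, the block kept 14.8 kb in HEAA and 3.67 kb in WT, against 5.5 kb in EV, so that HEAA stayed above EV (2.70 times) and WT was below it (0.667 times). That threshold kept 22.7% of all H3K27me3 bases in the HEAA list, 10.9% in the WT list and 24.9% in the EV list. As a share of what was left in the interval, the block held 16.4% in HEAA and 14.0% in WT, against 5.07% in EV.

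H3K27ac in bins 28 to 30 was lower with either UTX construct, in each library. It covered 6.30 and 3.81 kb in HEAA and 4.82 and 3.16 kb in WT, against 17.3 and 14.2 kb in EV, and the 4 HEAA and WT libraries did not overlap the 2 EV libraries. The mean over HEAA and WT was 0.287 of that in EV. Nearly all of it was in bin 28, where the HEAA libraries had 6 and 3.81 kb and the WT libraries 4.82 and 3.16 kb, against 15.3 and 13.5 kb in EV. A region around the strongest point of bin 28 was called in all 6 libraries and was narrower in HEAA and WT. It measured 1712 and 1286 bases in HEAA (6.46 and 7.10-fold), 1507 and 1515 bases in WT (4.25 and 7.11-fold), and 6653 and 3194 bases in EV (7.02 and 11.1-fold). A second, further along, was called from 153333821 to 153338995 in the first EV library and from 153335536 to 153339025 in the other (5.24 and 9.99-fold), and reached at most 6.46-fold in HEAA and WT. The third, near the high-coordinate edge of the bin, measured 926 and 330 bases in HEAA (3.44 and 4.02-fold) and 1199 bases in the first WT library (3.64-fold), against 1730 and 1139 bases in EV (5.07 and 6.88-fold), and was not called in the second WT library. Its widths thus overlapped between WT and EV.

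Some acetylated regions of bin 28 had little or no counterpart in HEAA and WT. The region from 153320557 to 153322286 of the first EV library (4.24-fold) and 153320616 to 153322314 of the second (5.97-fold) was met by 1 region of 332 bases in 1 HEAA library (2.56-fold) and by none in WT. The regions from 153316510 to 153317423 (4.22-fold) and from 153332560 to 153333034 (2.96-fold) were called in the second EV library alone. In bins 29 and 30 the HEAA libraries held 1 acetylated region and the WT libraries none, against 3 in the first and 2 in the second EV library. H3K4me1 over the 3 bins was 26.4 kb in HEAA and 22.8 kb in WT, against 37.6 kb in EV, or 0.701 of the EV value in HEAA and 0.608 in WT, and with a −log10 q of at least 3 the WT value was 0.402 of that in EV. In bin 29 it was 0.440 kb in HEAA and 1.10 kb in WT, against 5.57 kb in EV.

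The differences in the 2 marks lay largely side by side rather than on the same bases. An exception was a region acetylated in the first EV library alone, from 153372145 to 153372656 (2.78-fold). H3K27me3 was called on part of it in HEAA and in WT and not in EV. Of the 18.2 kb of bins 28 to 30 with H3K27me3 in HEAA and WT and not in EV, 0 kb carried H3K27ac in both EV libraries, and 1.97 kb carried H3K4me1 in EV. H3K27ac was lower mainly in bin 28 and H3K27me3 higher mainly in bins 29 and 30, whose H3K27me3 was 26.1 and 21.6 kb in HEAA and 21.1 and 16.9 kb in WT, against 9.25 and 11.9 kb in EV. No UTX or MLL4 peak was called in the block in any line, and the nearest UTX sites were site 19 in bin 27 and site 20 in bin 31. In bin 31, beside the block, H3K27ac was 17.4 and 8.42 kb in HEAA and 12.9 and 8.09 kb in WT, against 21 and 16.2 kb in EV, so that both WT libraries lay below both EV libraries and HEAA overlapped EV. Bins 31 to 33 held no H3K27me3 in any line, and in bins 32 and 33 H3K27ac overlapped between the lines.

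**Figure D4:**
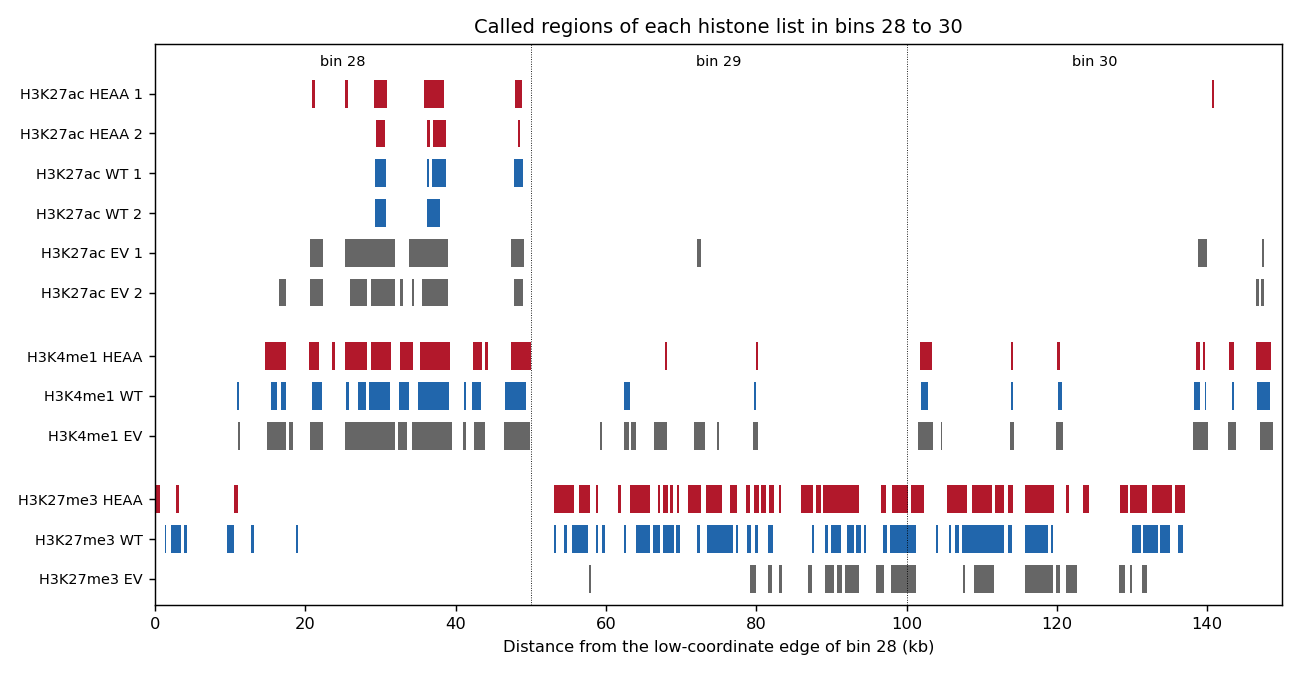
Called regions of each histone list in bins 28 to 30, drawn to scale against distance from the low-coordinate edge of bin 28, with HEAA in red above WT in blue and EV in grey. The acetylated region at the strongest point of bin 28 is wider in both EV libraries, and dotted lines divide the bins. H3K27me3 covers more of the block in HEAA (49.2 kb, 37 regions) and WT (41.7 kb, 41 regions) than in EV (21.1 kb, 18 regions). With a −log10 q of at least 3, WT is below EV (3.67 kb, against 5.5 kb).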

How the data were processed

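The intervals, fold enrichments and q-values were those deposited for UTX and MLL4 (narrow peaks) and for H3K27ac, H3K4me1 and H3K27me3 (broad regions). The submitters' processing notes name MACS2 and the builds hg19 and GRCh37; the sources used here do not give its version, the aligner or the filters, and the 6 inputs were not used here. The deposited fold enrichment is a linear ratio over background, and the deposited −log10 p-value and q-value are the peak caller's; the authors' values served only within a list. The summit offset the authors deposited for narrow peaks was not used. Per the labels' protocols, UTX and MLL4 chromatin was fragmented with micrococcal nuclease before sonication, and histone chromatin by sonication.

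Regions were clipped to the interval and called bases were summed, in bins of 50 kb and genome-wide, with pandas 2.3.3 and NumPy 2.4.6 under Python 3.11.15, and plotted with matplotlib 3.10.9. A bin entered a count when its lists averaged at least 500 called bases. H3K27ac was compared over libraries by two-sided exact permutation tests and by libraries that do not overlap, and single lists by a ratio of at least 2 after adding 1000 bases. Depth per sample is unknown, so no counting interval is given. The code was tested on simulated lists. Members, gene names and blocks were chosen with earlier results of these data known. The rule for regions to name took all UTX and MLL4 peaks (those not described singly are in the plot of folds), the 10 H3K27ac regions of best mean rank of fold (ranks 4 to 10 given as ranges), the 5 widest H3K4me1 and H3K27me3 regions, the 5 fullest bins per mark and each bin that passed a count rule; bins 28 to 30, the lost and gained H3K27ac regions and the separate regions in bin 28 were chosen after their values were seen. Gene families, cornified envelope genes and cell type markers were to be looked up on an hg19 annotation, which was not used here, so no gene level is given.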

Additional observations from a re-analysis of the deposited data

How the results depend on the processing

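Read depth is unknown, H3K4me1 and H3K27me3 have 1 list per line, and no H3K27ac design can reach 0.05. For totals of H3K27ac in the interval (HEAA and WT minus EV, HEAA minus EV, WT minus EV and HEAA minus WT, in kb), the q threshold, full-width regions, equal-size lists and scaling kept each direction. The first libraries alone, chosen after the data were seen, gave 11.1 for HEAA and WT minus EV and 24.4 for HEAA minus EV (WT minus EV kept its direction, −2.11), and the second libraries alone −7.55 for HEAA minus WT. Leaving out each library in turn gave −38.3 to −2.73 for HEAA and WT minus EV, −67.6 to 39.2 for HEAA minus EV, −60.0 to 12.7 for WT minus EV and −43.9 to 62.8 for HEAA minus WT.

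Deviations of same-numbered libraries from their line's mean correlated at 0.864 (HEAA with WT), 0.672 (HEAA with EV) and 0.761 (WT with EV) over the bins of the interval. Over bins genome-wide the values were 0.859, 0.637 and 0.681. The first list was the longer in every line, which by itself makes these deviations go together. The labels give the number no meaning, so a shared batch cannot be read from these values. In the replicate block, libraries were matched by number. The total differences, −18.9 kb for HEAA and WT minus EV, keep their values there by arithmetic, as each line has 1 library per number. Under the block 3 bins were lower in HEAA and WT than in EV at each number, while HEAA was higher than WT at each number in 5 bins and lower in 3. Genome-wide these rules were met by 16.5%, 18% and 15.7% of bins.

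For the H3K27ac bins of HEAA and WT against EV (0 higher, 1 lower), scaling gave 2 higher and 2 lower, 25 kb bins 4 lower, and 100 kb bins, a −log10 q of at least 5 and no minimum of bases 2 lower each; leaving out a library gave 0 to 1 higher and 2 to 3 lower. For HEAA against WT (0 and 0), equal-size lists gave 1 higher, scaling 2 higher and 1 lower, 25 kb bins 1 lower, and leaving out a library 0 to 18 higher and 0 to 14 lower. The largest of these arose without the second HEAA library (18 higher) and without the first (14 lower), with the lone library left compared with both WT libraries. No genome-wide share was computed for the leave-one-out counts. Bin 28 was lower by 9.06 to 10.8 kb when any library was left out.

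H3K4me1 of the interval in HEAA over EV was 0.990 with a −log10 q of at least 3, 0.988 with equal-size lists and 0.869 scaled, each turning the direction, and WT over EV was 0.855 scaled. H3K27me3 in WT over EV was 0.242 with a −log10 q of at least 3 and 0.805 scaled, and HEAA over WT was 3.43 and 0.943. In bins 28 to 30, H3K27me3 in WT over EV was 0.667 with a −log10 q of at least 3, and HEAA over WT (1.18) was 0.791 scaled and 4.04 with that threshold. H3K4me1 there was 0.402 with that threshold in WT over EV (0.608) and 1.56 in HEAA over WT (1.15). The cause was not tested.

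Among H3K4me1 bins past 2-fold, WT over EV (1 higher, 1 lower) gave 3 higher and 2 lower at 1.5-fold and 3 higher with a pseudocount of 100 bases. HEAA over EV (2 higher, 1 lower) gave 4 higher with that pseudocount, 1 higher and 0 lower in 100 kb bins, and 1 higher with equal-size lists. HEAA over WT (0 and 0) gave 1 higher at 1.5-fold, 1 higher and 1 lower with the pseudocount of 100, and 1 lower in 25 kb bins. Among H3K27me3 bins, WT over EV (2 higher, 10 lower) gave 17 lower at 1.5-fold, 4 higher and 20 lower in 25 kb bins and 1 higher in 100 kb bins. HEAA over EV (2 higher, 6 lower) gave 10 lower at 1.5-fold, 4 higher and 12 lower in 25 kb bins, 1 higher and 2 lower in 100 kb bins, and 1 higher with equal-size lists. HEAA over WT (3 higher, 0 lower) gave 8 higher and 1 lower at 1.5-fold, 5 higher in 25 kb bins, 1 higher in 100 kb bins, 1 higher and 1 lower scaled, 1 lower with the pseudocount of 100, and 2 lower with equal-size lists. With a −log10 q of at least 5, 0 UTX peaks of EV were left, and all other peak counts stayed within 1.5 times.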
